A study of Mus musculus with 12 samples.

Results

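The interferon-stimulated antiviral genes are a family of effectors that cells switch on after sensing type I interferon. Here they were followed as a listed set of 40 genes in mouse pancreatic stellate cells (PSCs), the cells that give rise to many fibroblasts of the pancreatic tumour stroma. The members were found by gene symbol in a count table of 39179 genes, and each of the 40 had exactly 1 entry. The 40 genes were grouped by role. The groups were ISG15 and the enzymes that attach or remove it, RNA and nucleotide effectors, dynamin-like GTPases, and membrane proteins of virus entry or release. Enzymes of ADP-ribosylation, TRIM and nuclear body proteins, schlafens and other interferon-induced proteins made up the rest.

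Type I interferons bind a receptor made of IFNAR1 and IFNAR2, which activates the kinases JAK1 and TYK2. These phosphorylate STAT2, which joins IRF9 in a complex that binds interferon-stimulated response elements (ISRE) in promoters. The genes so induced block viral entry, viral RNA, protein synthesis and release, and several of them feed back on the pathway itself. A different site, the gamma activated site (GAS), serves mainly the response to interferon gamma.

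PSCs were grown for 72 h alone (mono-PSCs), with pancreatic cancer cells (PCCs; 2W-PSCs), or with PCCs and macrophages (MØs; 3W-PSCs), and 4 libraries were made per culture. All PSCs carried the strain label C57BL/6, were immortalised with SV40, came from a single clone and expressed mCherry, by which they were sorted. The PCCs were an EGFP-expressing mouse pancreatic tumour line, the MØs were the RAW264.7 mouse macrophage line with TagBFP, and flasks of every culture held low-serum medium and the same total number of cells. The labels name no treatment. The PCC line was kept in doxycycline, and whether doxycycline was present in the flasks of any culture is not given in the sources used here, so its part in the change from mono to 2W was not tested. The comparison of 2W with mono asks what changes in PSCs when PCCs join, and that of 3W with 2W asks what changes when MØs join as well. Because the total was kept the same, cells that joined took the place of cells already in the culture. The part of this change in cell numbers was not tested.

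Each library held between 4561817 and 8093368 counted reads, and levels are given as CPM, which are counts relative to the library total, with TMM scaling over the 12 libraries. A floor of 3 counts corresponds to 0.349 to 0.738 CPM, depending on the library. Mitochondrially encoded genes took 7.39 to 8.19% of counts in 3W libraries, 3.93 to 7.38% in 2W libraries and 3.1 to 6.71% in mono libraries. 2W replicate 2 stood apart from the others. It had the lowest total, and its counts differed most from those of the other 2W libraries (chi-square per degree of freedom 41.8 to 80.1, against 20.9 to 23.4 among the other 2W pairs). Among the 38 members tested in any comparison it was the lowest 2W library for 15 and the highest for 11, so results that rest on it are given with and without it. In bulk RNA a lower level in every cell and a smaller number of cells expressing the gene cannot be told apart.

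The promoters of 31 of the 40 members were in the RefSeq table for GRCm38.p6, which holds 250 bases before and 50 bases after each transcript start. Ifi27, Ifi27l2a, Ly6e, Mx1, Mx2, Parp14, Parp9, Rtp4 and Usp18 were not in it. The 31 promoters were searched on both strands for an ISRE core, spelled GAAA, 2 bases of any kind and GAAA again, which reads TTTC, 2 bases and TTTC from the other strand. An ISRE core was found in 11 of the 31 members (35.5%), against 3.99% of all 27025 genes and 3.44% of all 32851 promoters in the table. The 6 stretches shown are the 160 bases upstream of the start of those members that had an upstream core and rose when MØs joined, since their cores can be read beside the changes described for these genes. They lie at chr19:34640729-34640888 on the plus strand (Ifit1), chr19:34583369-34583528 on the plus strand (Ifit3), chr4:156200819-156200978 on the minus strand (Isg15), chr12:26456453-26456612 on the minus strand (Rsad2), chr7:104465194-104465353 on the minus strand (Trim30a) and chr8:61927927-61928086 on the plus strand (Ddx60). Each is written 5′ to 3′ on the strand of its gene, with the ISRE cores in capitals.
Ifit1: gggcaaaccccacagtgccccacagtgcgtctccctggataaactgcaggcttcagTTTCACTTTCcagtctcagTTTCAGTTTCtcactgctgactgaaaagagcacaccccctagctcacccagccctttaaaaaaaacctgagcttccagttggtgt
Ifit3: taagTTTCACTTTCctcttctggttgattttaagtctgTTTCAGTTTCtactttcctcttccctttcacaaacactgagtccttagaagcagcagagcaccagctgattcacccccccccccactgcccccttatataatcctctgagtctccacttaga
Isg15: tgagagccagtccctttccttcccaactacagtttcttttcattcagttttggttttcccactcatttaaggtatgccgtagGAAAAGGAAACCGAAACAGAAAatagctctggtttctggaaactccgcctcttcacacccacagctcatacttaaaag
Rsad2: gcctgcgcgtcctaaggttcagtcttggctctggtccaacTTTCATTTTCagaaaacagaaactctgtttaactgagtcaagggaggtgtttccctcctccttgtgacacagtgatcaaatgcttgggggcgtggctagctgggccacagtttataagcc
Trim30a: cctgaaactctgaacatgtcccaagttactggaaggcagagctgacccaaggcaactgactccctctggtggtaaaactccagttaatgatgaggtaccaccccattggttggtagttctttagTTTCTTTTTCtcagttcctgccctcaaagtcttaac
Ddx60: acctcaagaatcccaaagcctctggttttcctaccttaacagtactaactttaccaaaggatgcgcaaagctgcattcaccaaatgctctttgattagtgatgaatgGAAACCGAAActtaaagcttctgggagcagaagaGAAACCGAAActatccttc

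Ifit1, Ifit3 and Ddx60 each held 2 separate cores, Rsad2 and Trim30a each held 1 in the stretch shown, and the 3 cores of Isg15 overlapped one another in a single run. Counted from the transcript start, the cores of these 6 genes began between 156 and 19 bases upstream. GENCODE places the start of Ifit1 inside the stretch shown. Bst2 and Ifitm2 also had upstream cores, at 130 and 124 bases and at 46 bases, and were not called between 3W and 2W. Slfn5 had a core 155 bases upstream and hardly any counts, and Trim21 and Ifitm3 had cores only past the start. The GAS palindrome TTCNNNGAA was found in 7 of the 31 members (22.6%), against 9.55% of all genes and 8.3% of all promoters. It lay in Bst2, where it overlapped the first ISRE core, in Ifit2, Isg20 and Samhd1 upstream, and in Adar, Ifi35 and Ifitm3 past the start. A match is a run of letters in a window and was not tested as a binding site.

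When PCCs joined the PSCs, 1 member rose, the ISG15 protease gene Usp18 (edgeR quasi-likelihood test with Benjamini-Hochberg adjustment over all genes tested, adjusted p under 0.05). This was 1 of 35 members tested, read against 0.839% of all genes tested called higher and 0.991% called in either direction. None of the 35 fell. The fitted log2 fold changes of the members lay above 0 for 31 and below 0 for 4, with a median of 0.60, while the median of all genes was 0.02. At an unadjusted p under 0.05, 20 members were higher and 1 was lower, against 4.93% and 2.47% of all genes. In 12 members all 4 2W libraries lay above all 4 mono libraries, a pattern met by 3.23% of all genes, and in Ifit2 they all lay below, a pattern met by 2.52%. The number called was sensitive to the fit. Without 2W replicate 2 it was 6, with Ifi44, Ifit3, Isg15, Rtp4 and Slfn2 added, in a fit that called 2.03% of all genes. Without mono replicate 2 it was 2, with Xaf1 added, in a fit that called 0.662%. DESeq2 called 8 members higher and 1.62% of its genes in either direction. A fit of all 12 libraries called 10 members and 2.22% of genes, and Usp18 was called in both. Slfn2, with at most 1 count in any mono library, was also called in both. Without 2W replicate 2 it passed the filter on low counts only through the 2W libraries, so that call is no independent support.

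When MØs joined as well, 28 of 37 members tested rose and 1, Ifi27, fell, against 5.73% of all genes called higher and 4.95% called lower (10.7% in either direction). The median log2 fold change of the members was 1.17, while that of all genes was 0.00. In 31 members every 3W library lay above every 2W library, against 11.6% of all genes, and in none did every 3W library lie below (9.71% of all genes). Slfn2, which is among the 28 and the 31, passed the filter on low counts only through the 3W libraries, so it is no independent support. The same holds for Mx1, which was tested and not called. The call was the same in all 8 fits that left out 1 library for 19 of the 29 members. The other 10 (Ifi27, Ifitm3, Isg20, Parp9, Rtp4, Samhd1, Trim21, Ube2l6, Usp18 and Znfx1) lost it in at least 1 such fit, and all 10 were lost together without 3W replicate 4. The number called ranged from 19 without 3W replicate 4 (5.71% of all genes) to 33 without 2W replicate 2 (18%). The median ranged from 1.06 to 1.23.

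Between 3W-PSCs and mono-PSCs, 34 of 38 members were higher and 1, Ifi27, was lower, against 13.4% of all genes called higher and 26.4% called in either direction. The median log2 fold change was 1.72. All 4 3W libraries lay above all 4 mono libraries in 33 members (13.9% of all genes) and below them in 1 (12.1%). Ifit2, Ifitm1 and Ifitm2 were not called. Mx1 and Slfn2, which are among the 34, passed the filter on low counts only through the 3W libraries. With Slfn2, which was near 0 in mono-PSCs, set at its bound, the median was also 1.72. The call of Ifi27l2a (0.71 ± 0.236, adjusted p = 0.0343 by edgeR) was lost without 3W replicate 3 or 4 or mono replicate 1, 3 or 4, at 0.51 to 0.70 and adjusted p of 0.0643 to 0.146, and the calls of the other 34 held in all 8.

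Whether the change at the second step differed from that at the first was tested directly over the 12 libraries, as the 3W minus 2W difference less the 2W minus mono difference. The steps differed for 2 of 38 members, Rsad2 and Cmpk2, both with a larger rise when MØs joined, against 0.433% of all genes called in that direction, 1.1% in the other and 1.54% in either. For the other 36 members the difference of the steps did not pass the test. The contrast lay above 0 for 28 members and below 0 for 10. Herc6 was also called without 2W replicate 3 (1.36, adjusted p = 0.0497) and Ly6e without 2W replicate 2 (1.49, adjusted p = 0.0453). Both steps share the 2W libraries, so a 2W library that is high or low moves them in opposite directions.

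**Figure D1:**
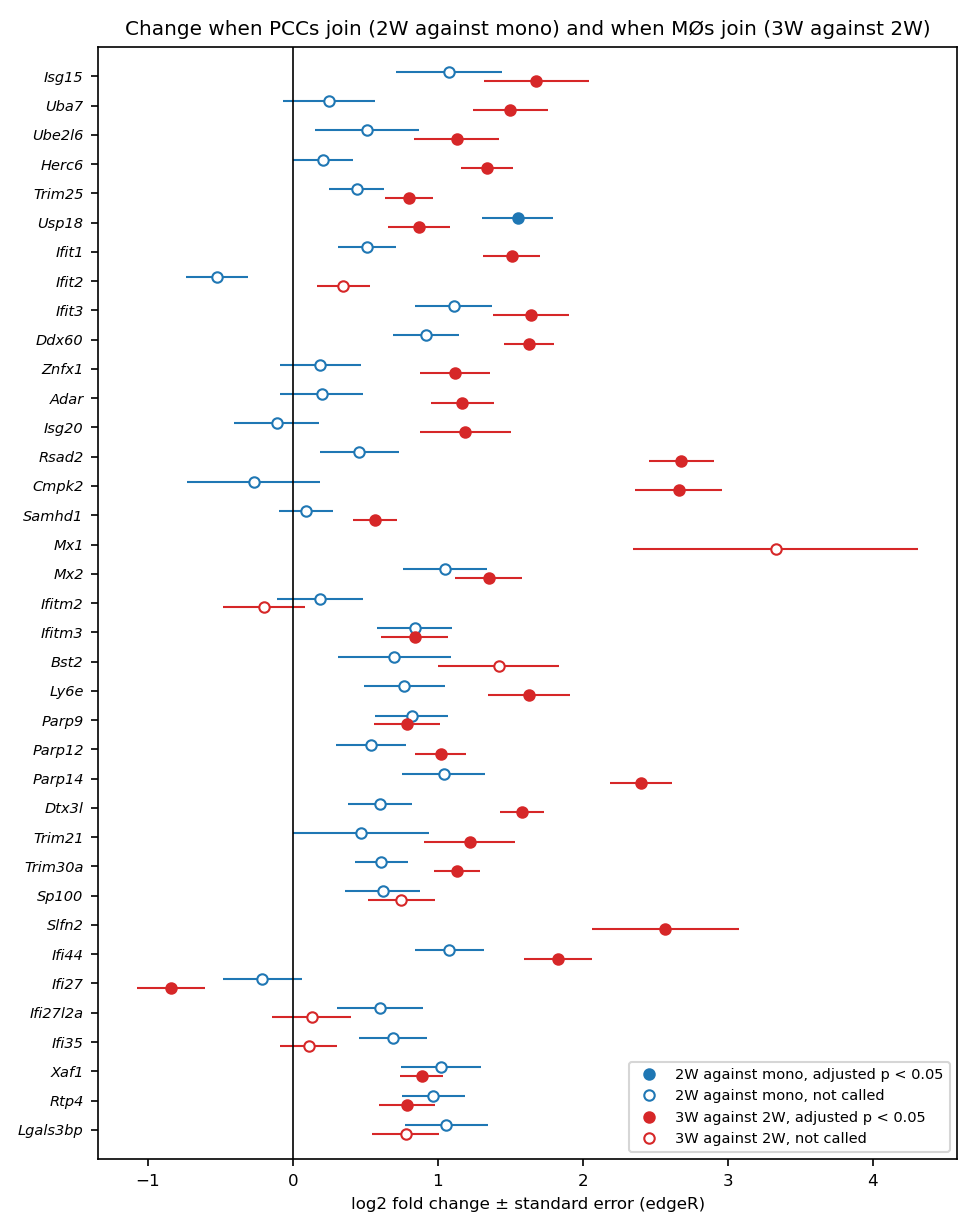
Log2 fold change ± standard error from edgeR for 37 members, ordered by role, for 2W against mono (blue) and 3W against 2W (red); filled points had an adjusted p under 0.05. Usp18 is the only filled blue point, whereas 29 of the red points are filled, all of them to the right of 0 except Ifi27 at -0.84. Members with no blue point were not tested in that comparison.

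ISG15 and the enzymes that act with it moved together when MØs joined, with all 6 higher in 3W than in 2W libraries (median log2 fold change 1.24). Of all genes tested, 5.73% were called higher in this comparison. Isg15, the ubiquitin-like protein itself, stood at 121, 63.5, 87.2 and 106 CPM in mono-PSCs, at 205, 64.9, 267 and 253 CPM in 2W-PSCs and at 711, 561, 489 and 782 CPM in 3W-PSCs. The 3W libraries were all above the 2W libraries, and among the latter replicate 2 sat within the mono range. The log2 fold change of Isg15 was 1.68 ± 0.364 (SE) for 3W against 2W (edgeR adjusted p = 0.0146). For 2W against mono it was 1.08 ± 0.366 (adjusted p = 0.339), and without 2W replicate 2 it was 1.36 (adjusted p = 0.00197).

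Usp18, which removes ISG15 from proteins and restrains signalling at IFNAR2, was at 9.58, 16.9, 13 and 15 CPM in mono-PSCs, at 38.4, 38.1, 32.3 and 48.5 CPM in 2W-PSCs and at 70, 49.7, 74.1 and 94.1 CPM in 3W-PSCs. The 3 cultures did not overlap in any library. It rose by a log2 fold change of 1.55 ± 0.244 with PCCs (edgeR adjusted p = 0.0076), a call kept in all 8 fits that left out 1 library, and by 0.87 ± 0.216 with MØs (adjusted p = 0.028). The second call was lost without 2W replicate 1 or 3 or 3W replicate 1, 3 or 4, with log2 fold changes from 0.71 to 0.88 and adjusted p from 0.0533 to 0.0947. The difference between its steps was -0.66 ± 0.386 and did not pass the test (adjusted p = 0.49).

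Uba7, the enzyme that activates ISG15, was at 9.06, 15.7, 9.01 and 9.39 CPM in mono-PSCs, at 11.1, 17.5, 8.43 and 13.8 CPM in 2W-PSCs and at 44, 38.4, 27.4 and 32.6 CPM in 3W-PSCs. Ube2l6, which carries ISG15 to its ligase, was at 12.4, 29.8, 21.8 and 30.6 CPM in mono-PSCs, at 30.7, 15, 48.8 and 37.3 CPM in 2W-PSCs and at 69.7, 64, 86.2 and 70.4 CPM in 3W-PSCs. Herc6, the main ISG15 ligase of the mouse, was at 42.5, 38.3, 39.7 and 44 CPM, then 43.2, 33.9, 56.8 and 53.6 CPM, and then 123, 112, 119 and 124 CPM in the same order of cultures. All 3 enzymes overlapped between mono and 2W libraries and were separate between 2W and 3W libraries. Their log2 fold changes for 3W against 2W were 1.50 ± 0.258 for Uba7 (edgeR adjusted p = 0.00493), 1.13 ± 0.291 for Ube2l6 (adjusted p = 0.0319) and 1.34 ± 0.182 for Herc6 (adjusted p = 0.00115). Ube2l6 lost its call in 6 of 8 fits that left out 1 library, all but those without 2W replicates 2 and 3, with log2 fold changes of 1.04 to 1.19 and adjusted p of 0.0733 to 0.0897. Trim25, a ligase for ubiquitin and ISG15 that acts on the RNA sensor RIG-I, rose with MØs from 96.1 ± 14.6 to 168 ± 19.8 CPM (SD, n = 4; log2 fold change 0.80 ± 0.165, edgeR adjusted p = 0.0118).

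Some reads of this group may come from other annotated genes. In the last 500 bases of transcripts, 15.9% of 75-base windows of Herc6 also occurred in Gm45193 and 11.2% of those of Uba7 in Gm20661. Usp18 shared 124 exon bases with Gm44148 on the opposite strand.

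**Figure D2:**
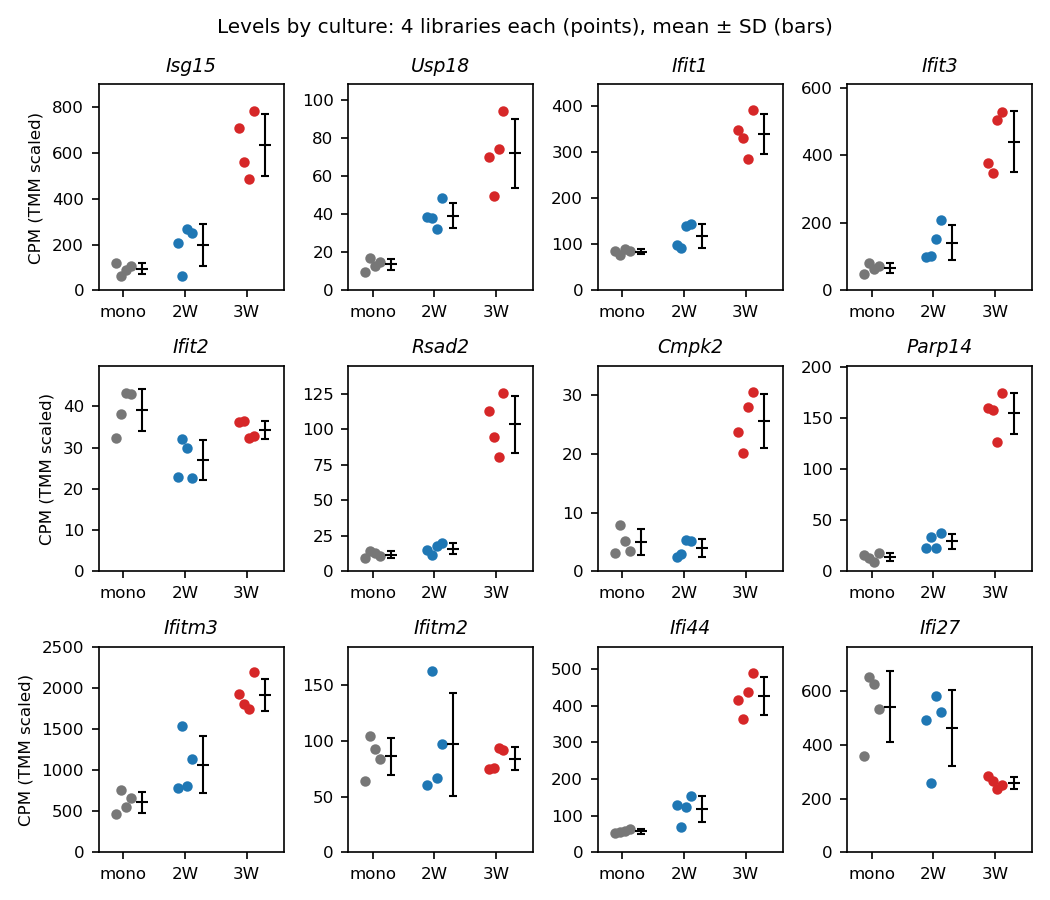
Level in CPM (TMM scaled) of 12 members in mono-PSCs (grey), 2W-PSCs (blue) and 3W-PSCs (red); points are the 4 libraries of each culture and bars give mean ± SD. Usp18 climbed at both steps, Rsad2 and Cmpk2 stayed below 20 CPM in mono and 2W libraries and lay at 20.1 CPM or more in every 3W library, and Ifit2, Ifitm2 and Ifi27 did not show this order.

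Of the 10 RNA and nucleotide effectors, 9 rose when MØs joined (median log2 fold change 1.35), against 5.73% of all genes called higher. Ifit2 was the exception. None of the 10 was called between 2W and mono, where 3 were higher and 1 lower at an unadjusted p under 0.05 (4.93% and 2.47% of all genes). Rsad2 encodes viperin, a radical SAM enzyme that makes a chain-terminating form of CTP. Its level was 9.23, 14.5, 12.8 and 11.1 CPM in mono-PSCs, 15.3, 11.3, 17.8 and 19.8 CPM in the 2W libraries and 113, 94.9, 80.4 and 126 CPM in 3W-PSCs. Mono and 2W libraries overlapped, and the lowest 3W library was well above both. The log2 fold change was 2.68 ± 0.223 for 3W against 2W (edgeR adjusted p = 5.81e-05) and 0.46 ± 0.275 for 2W against mono (adjusted p = 0.881). The difference between the steps was 2.24 ± 0.394 (adjusted p = 0.00565), a call kept in all 12 fits that left out 1 library.

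Cmpk2, the neighbour of Rsad2 on chromosome 12, is a mitochondrial nucleotide kinase. It was at 3.13, 7.94, 5.23 and 3.49 CPM in mono-PSCs, at 2.53, 2.95, 5.41 and 5.12 CPM in 2W-PSCs and at 23.7, 20.1, 28 and 30.5 CPM in 3W-PSCs. Mono and 2W libraries spanned the same low range and all 3W libraries lay above it. Cmpk2 rose by 2.66 ± 0.298 on the log2 scale with MØs (edgeR adjusted p = 0.000402), and its 2W against mono value was -0.27 ± 0.459 (adjusted p = 0.999). The difference between its steps was 2.94 ± 0.618 (adjusted p = 0.0193) and was not called without 2W replicate 1, where it was 2.57 (adjusted p = 0.081).

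Ifit3, Ifit1 and Ifit2 sit next to each other on chromosome 19 and encode tetratricopeptide proteins, of which IFIT1 binds viral RNA caps that lack methylation. Ifit3 was at 48.9, 82.2, 63.6 and 71.4 CPM in mono-PSCs, at 99.5, 103, 153 and 210 CPM in 2W-PSCs and at 378, 348, 506 and 529 CPM in 3W-PSCs. All 3 of its cultures were separate. For Ifit3 the log2 fold change was 1.64 ± 0.262 for 3W against 2W (edgeR adjusted p = 0.0032) and 1.11 ± 0.264 for 2W against mono (adjusted p = 0.0826, and 0.0089 at 1.22 without 2W replicate 2). Ifit1 rose with MØs from 119 ± 27.2 to 339 ± 43.3 CPM (log2 fold change 1.51 ± 0.196, adjusted p = 0.000883).

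Ifit2 was at 32.4, 38.1, 43.1 and 43 CPM in mono-PSCs, at 22.9, 32, 30 and 22.7 CPM in 2W-PSCs and at 36.1, 36.3, 32.2 and 32.7 CPM in 3W-PSCs. The 2W libraries were the lowest of the 3 cultures, with no overlap, and the 3W libraries lay within the mono range except for replicate 3, which lay just under it. None of these differences was called, with log2 fold changes of -0.52 ± 0.215 for 2W against mono (edgeR adjusted p = 0.563), 0.35 ± 0.186 for 3W against 2W (adjusted p = 0.258) and -0.19 ± 0.166 for 3W against mono (adjusted p = 0.417). Within a library the log2 ratio of Ifit1 to Ifit2 counts, with 0.5 added to each, was 1.12 ± 0.18 (SD, n = 4) in mono-PSCs, 2.13 ± 0.47 in 2W-PSCs and 3.30 ± 0.19 in 3W-PSCs. Each of the differences of this ratio between cultures had the smallest p that an exact two-sided permutation test of 4 against 4 libraries can give, 0.0286, which became 0.0536 after adjustment over 30 tests of 10 neighbouring pairs. For Rsad2 and Cmpk2 the ratio was 1.33 ± 0.35 in mono-PSCs and 2.03 ± 0.37 in 2W-PSCs (exact permutation p = 0.0286, 0.0536 adjusted), and 2.01 ± 0.34 in 3W-PSCs (exact permutation p = 0.971 against 2W).

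Ddx60, a helicase-like protein of the RIG-I branch of RNA sensing, was at 16, 19.8, 14.1 and 18.2 CPM in mono-PSCs, at 29.6, 35.9, 26.2 and 35.7 CPM in 2W-PSCs and at 99.9, 91.2, 90.3 and 114 CPM in 3W-PSCs. The cultures were separate at both steps. Its log2 fold change was 0.92 ± 0.226 with PCCs (edgeR adjusted p = 0.0923) and 1.63 ± 0.172 with MØs (adjusted p = 0.000266). Znfx1, a helicase that recognises double-stranded RNA, rose from 27 ± 6.85 to 58.4 ± 15.2 CPM when MØs joined (log2 fold change 1.12, adjusted p = 0.0151). Adar, which converts adenosine to inosine in double-stranded RNA, rose from 28.5 ± 7.74 to 64.7 ± 3.79 CPM (1.17, adjusted p = 0.0063). Isg20, an RNA exonuclease, rose from 14.5 ± 5.02 to 33.5 ± 10.9 CPM (1.19, adjusted p = 0.0341). The smallest of these rises was that of Samhd1, which degrades deoxynucleotides, from 78.7 ± 6.99 to 117 ± 12.5 CPM (0.57, adjusted p = 0.0368). The call of Samhd1 was kept only without 2W replicate 2 (adjusted p of 0.0631 to 0.121 in the other 7 fits). That of Isg20 was lost without 2W replicate 1 or 4 or 3W replicate 1, 2 or 4 (0.0728 to 0.108), and that of Znfx1 without 2W replicate 4 or 3W replicate 4 (0.0502 to 0.0542). Adar shares 1365 exon bases with Chrnb2 on the opposite strand and Znfx1 shares 82 with Zfas1, and the strand setting of the counting is not given in the sources used here.

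**Figure D3:**
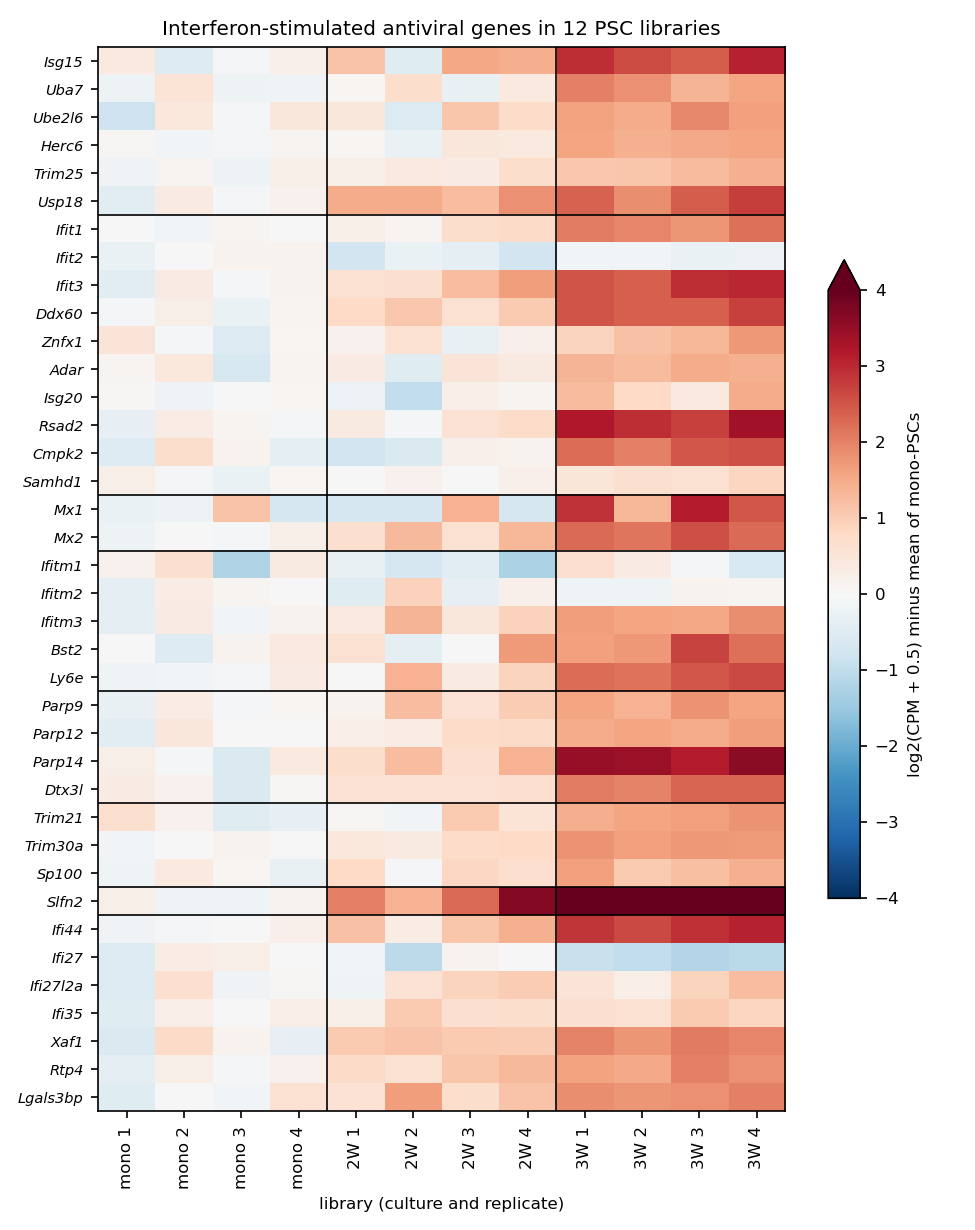
Level of the 38 tested members in each of the 12 libraries, as log2(CPM + 0.5) minus the mean of the 4 mono-PSC libraries; horizontal lines separate the role groups. The 3W columns are red for nearly all members, the 2W columns are paler and uneven, and Ifi27 and Ifit2 are blue in 3W; Slfn2 exceeds the top of the scale in all 3W libraries.

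Of the dynamin-like GTPases, Mx2 rose when MØs joined and Mx1 had few counts. Mx2, whose product acts in the cytoplasm of mouse cells and which GENCODE lists as a polymorphic pseudogene, was at 6.97, 8.14, 7.75 and 9.63 CPM in mono-PSCs, at 12.9, 20.4, 12.6 and 21 CPM in 2W-PSCs and at 40.3, 37.7, 51.2 and 40.9 CPM in 3W-PSCs. Its cultures did not overlap, and the log2 fold change was 1.35 ± 0.23 for 3W against 2W (edgeR adjusted p = 0.00464) and 1.05 ± 0.29 for 2W against mono (adjusted p = 0.155). Mx1, a nuclear GTPase whose gene is defective in many inbred strains, was at 0.174, 0.198, 1.26 and 0 CPM in mono-PSCs, at 0, 0, 1.59 and 0 CPM in 2W-PSCs and at 5.46, 1.51, 6.5 and 4.03 CPM in 3W-PSCs. The 2W library with counts overlapped the lowest 3W library, and 3W against 2W was not called (log2 fold change 3.33 ± 0.981, adjusted p = 0.0525). It was called without 2W replicate 2 (3.03, adjusted p = 0.0267) and without 2W replicate 3, where the remaining 2W libraries were all at 0 and no fold is given (adjusted p = 0.00802). Against mono-PSCs its log2 fold change was 3.46 ± 0.762 (adjusted p = 0.00268), and 5.13 without mono replicate 3. Mx1 passed the filter on low counts only through the 3W libraries, so this call is no independent support, and it was not tested at a minimum of 10 counts in every library.

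Of the 5 membrane proteins, Ly6e and Ifitm3 rose when MØs joined and Bst2 and Ifitm2 were not called. Ly6e, a lipid-anchored surface protein that limits entry of some viruses, was at 69.8, 73.2, 75.3 and 98.4 CPM in mono-PSCs, at 79.4, 207, 98.4 and 147 CPM in 2W-PSCs and at 367, 352, 443 and 491 CPM in 3W-PSCs. All 3W libraries were above all others, and 2W replicate 2 was the highest of the 2W libraries. The log2 fold change of Ly6e for 3W against 2W was 1.63 ± 0.281 (edgeR adjusted p = 0.0048).

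Ifitm3, which blocks fusion of viruses in endosomes, was at 463, 758, 554 and 663 CPM in mono-PSCs, at 789, 1534, 812 and 1140 CPM in 2W-PSCs and at 1929, 1801, 1746 and 2192 CPM in 3W-PSCs. The cultures did not overlap, and 2W replicate 2 came closest to the 3W range. It rose by 0.84 ± 0.228 on the log2 scale with MØs (edgeR adjusted p = 0.0395), and its value with PCCs was 0.84 ± 0.258, without a call (adjusted p = 0.246). The call with MØs was kept only without 2W replicate 2 (log2 fold change 1.06) and was lost in the other 7 fits that left out 1 library, with log2 fold changes of 0.71 to 0.88 and adjusted p of 0.0701 to 0.115.

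Ifitm2, the neighbour of Ifitm3 on chromosome 7, had 86.2 ± 16.9, 96.7 ± 46.5 and 83.9 ± 10.3 CPM in mono-, 2W- and 3W-PSCs, and the cultures overlapped throughout. Its log2 fold change was -0.20 ± 0.282 for 3W against 2W (edgeR adjusted p = 0.694). The log2 ratio of Ifitm2 to Ifitm3 within a library was -2.82 ± 0.17 in mono-PSCs, -3.52 ± 0.20 in 2W-PSCs and -4.51 ± 0.20 in 3W-PSCs, each difference at the smallest exact permutation p of 0.0286 (0.0536 adjusted over the 30 tests). Of the 75-base windows at the end of Ifitm2, 32.6% also occurred in other annotated genes, most of them pseudogenes, so its counts are uncertain. Ifitm1 stayed at 0.32 to 2.66 CPM in all 12 libraries and was tested only between 3W and mono and for the difference of steps, without a call.

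Bst2 encodes tetherin, which holds budding virus at the cell surface. Its level was 47.2, 32.9, 52.6 and 62.3 CPM in mono-PSCs, 72.1, 36.4, 47.5 and 157 CPM in the 2W libraries and 150, 159, 313 and 219 CPM in 3W-PSCs. 2W replicate 4 reached the 3W range, the other 2W libraries overlapped the mono range or lay just above it, and 3W against 2W was not called (log2 fold change 1.42 ± 0.417, edgeR adjusted p = 0.0522). It was called without 2W replicate 2 (1.18, adjusted p = 0.0219) and without 2W replicate 4 (2.00, adjusted p = 0.00843). Against mono-PSCs it was higher in 3W-PSCs by 2.10 ± 0.237 (adjusted p = 4.44e-06).

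All 4 members that act in ADP-ribosylation rose with MØs (median log2 fold change 1.30), against 5.73% of all genes called higher. None was called with PCCs, where all 4 were higher at an unadjusted p under 0.05 (4.93% of all genes). Parp14, a mono-ADP-ribosyltransferase, was at 16.5, 13.5, 9.19 and 18.5 CPM in mono-PSCs, at 23.2, 33.9, 22.7 and 37.7 CPM in 2W-PSCs and at 160, 158, 127 and 175 CPM in 3W-PSCs. Its 3 cultures were separate, with the wider gap between 2W and 3W. The log2 fold change was 2.40 ± 0.212 for 3W against 2W (edgeR adjusted p = 9.11e-05) and 1.04 ± 0.287 for 2W against mono (adjusted p = 0.158). The difference between these steps was 1.39 ± 0.405 and did not pass the test (adjusted p = 0.116).

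Dtx3l is a ubiquitin ligase that works as a pair with PARP9, and the genes lie side by side on chromosome 16. Dtx3l was at 39.7, 35.7, 20.9 and 32.5 CPM in mono-PSCs, at 47.4, 47.5, 47.5 and 50.1 CPM in 2W-PSCs and at 130, 125, 160 and 161 CPM in 3W-PSCs. Parp9 was at 37.8, 57.4, 44 and 49.1 CPM, then 51.8, 111, 69.6 and 94.2 CPM, and then 139, 122, 162 and 141 CPM in the same order. For both, every 3W library was above every 2W library. Between mono and 2W, Dtx3l was separate and Parp9 overlapped.

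For 3W against 2W the log2 fold change was 1.58 ± 0.154 for Dtx3l (edgeR adjusted p = 0.000153) and 0.79 ± 0.228 for Parp9 (adjusted p = 0.0491). The call of Parp9 was kept only without 2W replicate 2 (0.97). In the other 7 fits its log2 fold change was 0.61 to 0.85 and its adjusted p 0.0894 to 0.128. Parp9 and Dtx3l share 458 exon bases on opposite strands, so reads there may count for either. Parp12, a mono-ADP-ribosyltransferase that restrains translation, was at 19.5, 36.5, 26.1 and 25.8 CPM in mono-PSCs, at 31.6, 32.5, 44.5 and 44.9 CPM in 2W-PSCs and at 74.4, 79.3, 74.1 and 84.2 CPM in 3W-PSCs. The 3W libraries of Parp12 were close together and separate from the rest (1.02 ± 0.176, adjusted p = 0.00493).

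Of the TRIM and nuclear body proteins, Trim30a and Trim21 rose with MØs and Sp100 was not called. Trim30a, a regulator of NF-kB signalling, was at 95.6, 101, 114 and 101 CPM in mono-PSCs, at 138, 133, 172 and 178 CPM in 2W-PSCs and at 361, 320, 346 and 337 CPM in 3W-PSCs. Its cultures were separate at both steps, and the log2 fold change was 1.13 ± 0.159 for 3W against 2W (edgeR adjusted p = 0.00143). Of its 75-base windows 23.6% also occurred in the paralogue Trim30d.

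Trim21, the cytosolic receptor for antibody-bound virus, was at 5.75, 3.97, 2.34 and 2.65 CPM in mono-PSCs, at 3.65, 3.2, 7.79 and 5.28 CPM in 2W-PSCs and at 10.4, 11.4, 11.8 and 13.4 CPM in 3W-PSCs. The 3W libraries were the highest and the other cultures overlapped (1.22 ± 0.315 for 3W against 2W, edgeR adjusted p = 0.0319). Its call was lost in 6 of 8 fits that left out 1 library, all but those without 2W replicates 2 and 3, at log2 fold changes of 1.08 to 1.28 and adjusted p of 0.071 to 0.0956. Sp100, a scaffold of nuclear bodies, was at 18.8, 27.6, 22 and 17.1 CPM in mono-PSCs, at 36.9, 19.9, 37.5 and 34.1 CPM in 2W-PSCs and at 66.4, 44, 49.6 and 56.8 CPM in 3W-PSCs. No 3W library overlapped a 2W library, and the log2 fold change of 0.75 ± 0.228 did not pass the test (adjusted p = 0.0593, and 0.0303 at 0.58 without 2W replicate 2).

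Slfn2, a schlafen known for keeping T cells and monocytes quiescent, had at most 1 count in any mono library. It was at 0.174, 0, 0 and 0.12 CPM in mono-PSCs, at 1.82, 0.984, 2.23 and 6.72 CPM in 2W-PSCs and at 26.9, 16.7, 18.2 and 10.1 CPM in 3W-PSCs. The 3 cultures did not overlap. Against the mean floor of 3 counts per mono library, 0.505 CPM, 2W-PSCs had a mean at least 5.82-fold higher, and 3W-PSCs had a mean at least 35.6-fold higher. Between 3W and 2W the log2 fold change was 2.57 ± 0.506 (edgeR adjusted p = 0.00915), and 3.36 without 2W replicate 4. Slfn2, too, passed the filter on low counts only through the 3W libraries and was not tested at a minimum of 10 counts in every library. Slfn5 had at most 2 counts in any library and was not tested.

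Among the other interferon-induced proteins, 3 of 7 tested rose with MØs and 1, Ifi27, fell, against 5.73% and 4.95% of all genes. Ifi44, a cytoplasmic protein with a GTP-binding motif, was at 51.7, 54.4, 57.9 and 65.1 CPM in mono-PSCs, at 130, 69.6, 125 and 153 CPM in 2W-PSCs and at 416, 362, 438 and 488 CPM in 3W-PSCs. Its cultures were separate, although 2W replicate 2 lay close to the mono libraries. The log2 fold change was 1.83 ± 0.232 for 3W against 2W (edgeR adjusted p = 0.000794) and 1.08 ± 0.236 for 2W against mono (adjusted p = 0.0539, and 0.000586 at 1.25 without 2W replicate 2).

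Xaf1, a partner of the apoptosis inhibitor XIAP, was at 14.1, 36.1, 23.3 and 16.7 CPM in mono-PSCs, at 44.2, 47.7, 43.9 and 43.2 CPM in 2W-PSCs and at 85.6, 73.2, 90.2 and 83.2 CPM in 3W-PSCs. Rtp4, a chaperone that helps receptors reach the cell surface, was at 61.1, 92.7, 74.6 and 88.6 CPM in mono-PSCs, at 133, 119, 170 and 192 CPM in 2W-PSCs and at 241, 227, 317 and 281 CPM in 3W-PSCs. For both genes the cultures were separate at both steps. The difference between the steps was -0.10 for Xaf1 (edgeR adjusted p = 0.943) and -0.15 for Rtp4 (adjusted p = 0.887). Xaf1 changed by 1.02 ± 0.276 with PCCs (edgeR adjusted p = 0.146, and 0.0418 at 1.31 without mono replicate 2) and rose by 0.89 ± 0.148 with MØs (adjusted p = 0.00406). Rtp4 changed by 0.97 ± 0.216 with PCCs (adjusted p = 0.0572, and 0.00589 at 1.07 without 2W replicate 2) and rose by 0.79 ± 0.194 with MØs (adjusted p = 0.0258). The latter call was lost without 2W replicate 1 or any 1 of the 3W libraries, at log2 fold changes of 0.70 to 0.87 and adjusted p of 0.0525 to 0.0775.

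Ifi27, a small hydrophobic protein of mitochondria and the nuclear envelope, went the other way. It was at 360, 652, 626 and 535 CPM in mono-PSCs, at 492, 257, 581 and 522 CPM in 2W-PSCs and at 286, 266, 236 and 250 CPM in 3W-PSCs. All 3W libraries were below all mono libraries and below 3 of the 2W libraries, while 2W replicate 2 fell within the 3W range. Ifi27 fell by 1.07 on the log2 scale against mono-PSCs (SE 0.176, edgeR adjusted p = 0.000239) and by 0.84 against 2W-PSCs (SE 0.232, adjusted p = 0.0422). The second call was kept only without 2W replicate 2, where the log2 fold change was -1.04, and was lost in the other 7 fits at -0.89 to -0.71 with adjusted p of 0.0739 to 0.121.

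Ifi27l2a, a relative of Ifi27 that lies 1928 bases away on chromosome 12, was at 71.7 ± 26.3, 107 ± 34.2 and 117 ± 34.5 CPM in mono-, 2W- and 3W-PSCs, with overlap between all cultures. The log2 ratio of Ifi27 to Ifi27l2a was 2.95 ± 0.31 in mono-PSCs and 1.19 ± 0.51 in 3W-PSCs (exact permutation p = 0.0286, 0.0536 adjusted). Ifi35, which has a leucine zipper, was at 83 ± 19.2 CPM with PCCs and 89.7 ± 13.1 CPM with MØs as well (log2 fold change 0.11, edgeR adjusted p = 0.765), and its 3W level exceeded that of mono-PSCs (0.77, adjusted p = 0.00422). Lgals3bp, a secreted glycoprotein, was at 73.2 ± 24.4, 151 ± 54.3 and 260 ± 20.9 CPM in mono-, 2W- and 3W-PSCs. It was called against mono-PSCs (1.82, adjusted p = 2.83e-06) and not against 2W-PSCs (0.78, adjusted p = 0.0531, and 0.000402 at 1.04 without 2W replicate 2). Epsti1 had no counts in mono and 2W libraries and 0 to 0.532 CPM in 3W libraries, and was not tested.

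Libraries of a culture differed from each other to unequal extents. Over the 38 tested members, the median SD of log2(CPM + 0.5) between libraries was 0.33 in mono-PSCs, 0.43 in 2W-PSCs and 0.19 in 3W-PSCs. The median over members of the log2 level relative to the mono mean was -0.18, 0.21, -0.05 and 0.10 in the 4 mono libraries, 0.29, 0.38, 0.61 and 0.75 in the 2W libraries and 1.67, 1.58, 1.77 and 1.82 in the 3W libraries. The 3 sets of library medians did not overlap. 3W replicate 4 was the highest 3W library for 21 of the 38 members and 3W replicate 2 the lowest for 19.

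The genes that carry the interferon signal were taken from a list of 41, of which 28 had enough counts to be tested. None was called between 2W and mono, where 5 were higher at an unadjusted p under 0.05 (4.93% of all genes). Between 3W and 2W, 11 were higher and 0 lower, against 5.73% and 4.95% of all genes. Between 3W and mono, 17 were higher and 0 lower, against 13.4% and 13% of all genes. The 12 interferon genes of the list, among them Ifnb1, Ifna4 and Ifng, had no count in any library apart from 1 count of Ifne in 2W replicate 1, so in PSCs none of them rose above the floor at this depth. Of the 75-base windows of Ifna1, 34.3% also occurred in other annotated genes, as did 27.2% of those of Ifna5. Ifna11 and Ifnab were not found in GENCODE M21. The zeros of these genes are therefore less certain.

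Of the receptor chains, Ifnar2 rose with MØs from 30.3 ± 2.76 to 64.8 ± 6.33 CPM, with no overlap (log2 fold change 1.09 ± 0.162, edgeR adjusted p = 0.00199). Of its 75-base windows, 17.1% also occurred in Gm21970. Ifnar1 was at 15.7 ± 6.32 and 28.3 ± 9.81 CPM and was not called (0.83 ± 0.343, adjusted p = 0.152). The kinase genes Jak1 (0.12, adjusted p = 0.571) and Tyk2 (0.29, adjusted p = 0.248) were not called, while Jak2, which serves the interferon gamma receptor and many cytokine receptors, rose by 1.73 ± 0.246 (adjusted p = 0.00157).

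Stat2 rose by 1.19 ± 0.156 with MØs (edgeR adjusted p = 0.000936). Its partner in the complex, Irf9, was at 158 ± 30.3 CPM before and 164 ± 21.7 CPM after MØs joined (0.04 ± 0.181, adjusted p = 0.814), and its 3W level exceeded that of mono-PSCs (0.56, adjusted p = 0.0109, and 0.0507 without 3W replicate 4).

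Irf7, which amplifies interferon production, rose by 1.43 ± 0.216 (edgeR adjusted p = 0.00222) and Irf1 by 1.11 ± 0.273 (adjusted p = 0.0262) with MØs. The cytosolic RNA sensors Ddx58 (1.12, adjusted p = 0.00253), Ifih1 (1.05, adjusted p = 0.00179) and Dhx58 (1.48, adjusted p = 0.00128) and the endosomal sensor Tlr3 (1.44, adjusted p = 0.0106) rose as well. Socs3, a feedback inhibitor of several cytokine receptors, rose by 2.02 ± 0.546 (adjusted p = 0.0386). The call of Socs3 was lost in 6 of 8 fits that left out 1 library, all but those without 2W replicates 2 and 3 (adjusted p of 0.0697 to 0.116). That of Irf1 was lost without 2W replicate 1 or any 1 of the 3W libraries (0.0527 to 0.0791). The DNA sensing genes Mb21d1 (0.15, adjusted p = 0.609) and Tmem173 (0.41, adjusted p = 0.321), the adaptor gene Mavs (0.25, adjusted p = 0.558) and Irf3 (-0.35, adjusted p = 0.438) were not called.

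**Figure D4:**
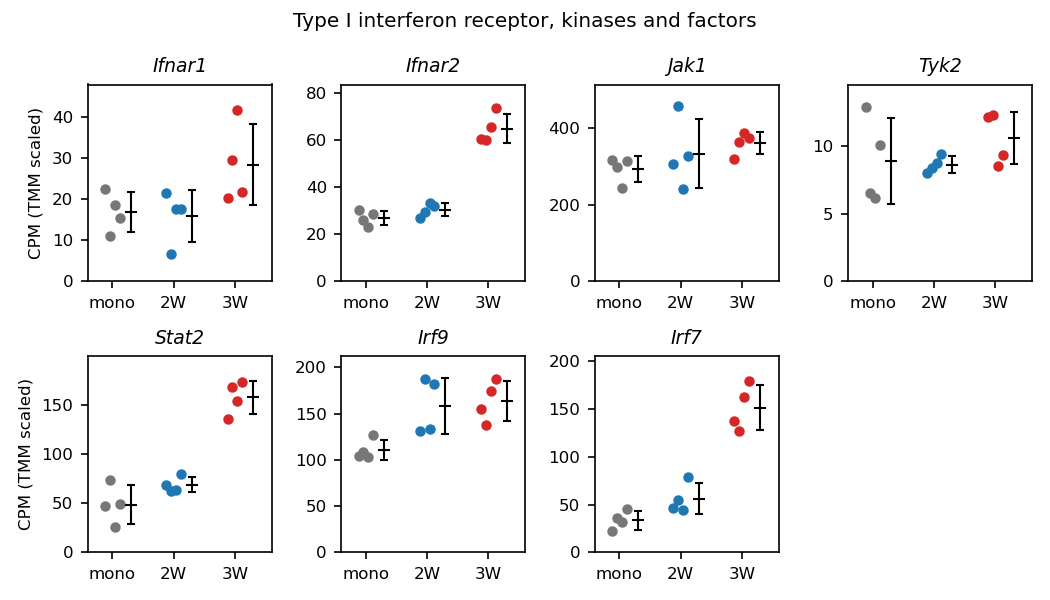
Level in CPM (TMM scaled) of 7 genes of the type I interferon receptor, its kinases and its transcription factors; points are the 4 libraries of each culture and bars give mean ± SD. Ifnar2, Stat2 and Irf7 lay higher in every 3W library than in every 2W library, whereas Ifnar1, Jak1, Tyk2 and Irf9 overlapped between those cultures.

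Markers of other cell types moved with the cultures. The summed level of 14 macrophage markers was 9.75 to 12.5 CPM in mono libraries, 13.5 to 18.6 CPM in 2W libraries and 47.4 to 85.4 CPM in 3W libraries, where replicate 4 had the highest sum. Of the 14, Emr1 was at 0 in all 12 libraries. Ptprc was at 0 in all mono and 2W libraries and in 3W replicates 1 and 2. In 3W replicates 3 and 4 it was at 0.764 and 2.6 CPM. Laptm5, Tyrobp and Spi1 were also at 0 in all mono and 2W libraries. In 3W libraries Laptm5 was at 0.116 to 9.74 CPM, Tyrobp at 0 to 2.86 CPM and Spi1 at 0 to 1.04 CPM, each highest in replicate 4. Lyz2 (13.9 CPM) and Fcer1g (4.16 CPM) were highest in that library too, and Csf1r was highest in 2W replicate 2 (6.89 CPM). Cd14, which was also counted in every mono library, made up 20.2 to 25.1 CPM of the sums in 3W-PSCs. Of the 7 macrophage markers tested for 3W against 2W, 4 were called higher and 0 lower (5.73% and 4.95% of all genes). These were Cd14, Cd53, Mpeg1 and Cybb, each with every 3W library above every 2W library. Cd53, Mpeg1 and Cybb passed the filter on low counts only through the 3W libraries, so their calls are no independent support. Cybb was at 0 CPM in all 2W libraries and at 4.08 to 8.49 CPM in 3W libraries. Mpeg1 was at 0 to 1.28 and 4.65 to 9.55 CPM, and Cd53 at 0.954 to 0.984 and 4.19 to 7.15 CPM. Without 3W replicate 4 the median log2 fold change of members for 3W against 2W was 1.15. In that fit 19 members were called, against 5.71% of all genes. The remaining 3W libraries still held 47.4 to 53.5 CPM of macrophage markers, so this fit does not test the part of macrophage RNA.

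The summed level of 12 epithelial and cancer cell markers was 0.481 to 2.44 CPM in mono libraries, 76.2 to 148 CPM in 2W libraries and 50.8 to 89.3 CPM in 3W libraries. It was led by keratin genes and Cdh1, while Cldn4 was at 0 in all libraries and Epcam did not exceed 0.382 CPM. The 12 stellate cell and fibroblast markers summed to 5170 to 9317 CPM in mono libraries, 8889 to 9392 CPM in 2W libraries and 5548 to 6597 CPM in 3W libraries, with collagen genes and Vim high throughout. Of these, Lum did not exceed 1.39 CPM and Des did not exceed 3.33 CPM in any library. The part of macrophage RNA, of cancer cell RNA and of the mitochondrial share in the changes of the members was not tested.

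**Figure D5:**
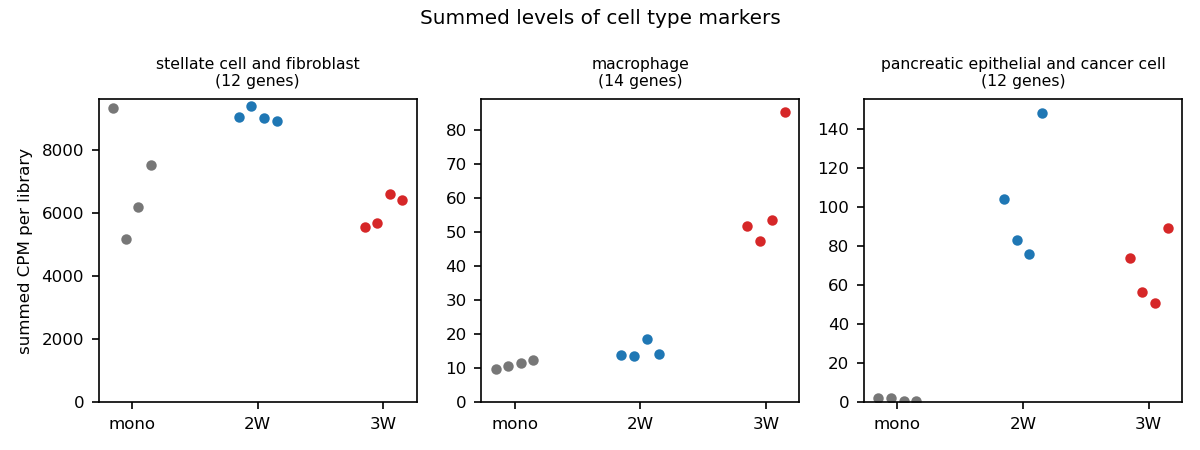
Summed CPM of stellate cell and fibroblast markers (12 genes), macrophage markers (14 genes) and pancreatic epithelial and cancer cell markers (12 genes); each point is 1 library and each panel has its own scale from 0. Macrophage markers are highest in 3W libraries (47.4 to 85.4 CPM), epithelial markers appear in 2W and 3W libraries, and both stay far below the stellate cell markers (5170 CPM or more). The sets hold different genes, so their sums do not give the share of RNA from each cell type.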

How the data were processed

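RNA of mCherry-sorted PSCs was measured in 12 libraries, 4 per culture. The authors made QuantSeq 3′ FWD libraries, sequenced single 75-base ends, used FastQC for quality control, trimmed the reads, mapped these to GRCm38 with STAR (default settings) and assigned them to Ensembl genes with featureCounts. The deposited values are whole-number counts per gene that have not been normalised, while the study calls its read counts normalised. All 12 columns were matched to samples by their labels, and no column was left out. Molecular identifiers and the strand setting of the counting are not given in the sources used here, so PCR copies count as reads and depth statements cover counting error only. A 3′ library gives about 1 read per transcript, and genes with a wrong or shared 3′ end are counted low or together.

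Counts were scaled by TMM in edgeR 4.0.16 (R 4.3.3), filtered with filterByExpr and compared with glmQLFit and glmQLFTest at a prior count of 0.125, each pair of cultures in a fit of its own 8 libraries without a block. The difference of the steps was fitted over all 12 libraries. Benjamini-Hochberg adjustment ran over every gene that was tested, and an adjusted p under 0.05 was called. Standard errors are the absolute log2 fold change divided by the square root of F. Neighbouring members within 200000 bases were compared by two-sided exact permutation tests. The procedure was tested on simulated data. The 4 libraries of a culture are described as biological replicates of 1 clone, so p-values cover the spread between such cultures.

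The members and gene lists were chosen with earlier results of these data known. Values in every library are given for 26 members: those called in any comparison with an absolute log2 fold change above 1 and at least 10 counts a library on average, at most 4 per role group by the size of 3W against 2W, and any member called between 2W and mono. Ifit2, as the exception in its group, was added after its values were seen. Some genes of the signalling list are counted but not reported singly here. Positions, exon overlaps and shared 75-base windows in the last 500 bases come from GENCODE release M21 on GRCm38, and promoters from RefSeq on GRCm38.p6. Alternatives were DESeq2 1.42.0, its size factors in edgeR, other filters, all 12 libraries in 1 fit, glmTreat, a prior count of 2, the replicate number as a block, removal of Gm26924 and mitochondrial rRNA genes, and each library left out in turn.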

Additional observations from a re-analysis of the deposited data

Results flagged for a closer look

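Among the 38 tested members, 114 groups of 4 libraries were examined for a library far from the other 3, and 4 were found, where chance alone gives about 1 in 20 groups. Mx1 stood at 1.26 CPM in mono replicate 3, with 0 to 0.198 CPM in the other mono libraries. Mx1 also stood at 1.59 CPM in 2W replicate 3, with 0 CPM in the other 2W libraries. Dtx3l was at 50.1 CPM in 2W replicate 4 against 47.4 to 47.5 CPM in the others, a small distance beside a very narrow spread. Uba7 was at 15.7 CPM in mono replicate 2 against 9.01 to 9.39 CPM in the others. The difference between the response to PCCs and the response to MØs passed the test for Rsad2 (2.24 on the log2 scale, edgeR adjusted p = 0.00565) and Cmpk2 (2.94, adjusted p = 0.0193).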

How the results depend on the processing

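The median log2 fold change of the members kept its sign under the 16 alternatives for which it was computed, with 0.44 to 0.66 for 2W against mono, 1.06 to 1.23 for 3W against 2W and 1.66 to 1.78 for 3W against mono when each library was left out in turn. For 2W against mono, 111 genes and 1 member were called; DESeq2 gave 277 genes and 8 members, a fit of all 12 libraries 262 and 10, no filter 177 genes and 5 members, and glmTreat against a log2 fold change of 1 gave 41 genes and 0 members. A minimum of 10 counts in every library gave 57 genes. Leaving out each library gave 61 to 233 genes and 1 to 6 members, the most without 2W replicate 2. For 3W against 2W, 1230 genes and 29 members were called; glmTreat gave 132 and 6, a log2 fold change above 1 as well gave 672 genes, and leaving out each library gave 497 to 2107 genes and 19 to 33 members. For 3W against mono, 3054 genes and 35 members were called; glmTreat gave 487 genes, a log2 fold change above 1 as well 1380, and leaving out each library 2228 to 4266 genes and 34 to 35 members. For the difference of the steps, 181 genes and 2 members were called; DESeq2 gave 379 genes, a minimum of 10 counts 93, glmTreat 83 genes and 0 members, and leaving out each library 116 to 219 genes and 1 to 3 members. Cmpk2 between 2W and mono, which was not called, ranged from -0.45 to 0.03 when each library was left out and changed sign without mono replicate 2. The cause was not tested in any of these. Replicate numbers were not taken as pairs, since same-number libraries correlated at -0.0476 to 0.338 in their deviations from the culture means and not every library correlated best with its own number. Between mono and 2W libraries the same-number correlations were 0.338, 0.259, 0.211 and 0.099, a hint from the data and not from the design. With the replicate block, 5 members (135 genes) were called for 2W against mono, where Ifi44, Ifit3, Lgals3bp and Rtp4 were gained, 24 members (752 genes) for 3W against 2W, 35 members for 3W against mono and 3 for the difference of the steps. For 3W against 2W the block lost Ifi27, Ifitm3, Isg20, Parp9, Samhd1 and Trim21 and gained Bst2. Depth limited Mx1, Ifitm1, Slfn5 and Epsti1, which averaged under 13 counts per library.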
